A study of Drosophila melanogaster with 32 samples.

Results

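Amyrel, an amylase relative, and 5 maltase genes, Mal-A1, Mal-A2, Mal-A7, Mal-A8 and Mal-B1, were followed in whole Drosophila melanogaster flies of 7 long-lived P-element insertion lines and their control. The 6 genes were taken by symbol or synonym, and each had 1 probe set of its own among the 18952 of the Affymetrix Drosophila Genome 2.0 array. All 6 were among the 12518 probe sets kept, which reached a MAS5 signal of at least 50 on both arrays of at least 1 line and sex. This filter looked at signal in any group and not at differences between groups.

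The lines were pyd, mub, crol, CG10990, CG9238, BG00817 and esg, each homozygous for 1 P{GT1} insertion. All but BG00817 are named for the gene that the insertion lies in or near. The exact insertion site of BG00817 was not known, but the paper gives its cytological location, which is on another chromosome than Mal-B1. The control was the co-isogenic Canton S F stock without an insertion, and the lines had been picked because they lived longer in at least 1 sex. All flies were virgins kept with their own sex on cornmeal and molasses medium and frozen at 42 days of age. RNA came from pools of whole flies, with 2 pools for each of the 16 combinations of line and sex, giving 32 arrays. The sources used here do not state whether both pools of a group were raised apart, and the p-values therefore cover only variation among these pools, some of which may be technical. Each line is 1 stock, so an insertion cannot be told apart from anything else that stock carries.

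Maltases are alpha-glucosidases that split maltose, sucrose and related sugars into simple sugars at the gut surface, after amylases have cut starch into short chains. Amyrel belongs to the amylase family and codes for a secreted enzyme. In flies these genes are expressed largely in the midgut, and sugar-rich food is known to lower many of them. Mal-A1 to Mal-A8 lie side by side in gene order on chromosome arm 2R, where Amyrel also lies. Mal-B1 lies on 2L directly beside Mal-B2, with 17 annotated genes between it and crol and 469 between it and esg. In RNA from whole flies, fewer gut cells and less RNA per cell cannot be told apart.

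The arrays followed their labels on sex. The 18 kept probe sets for ovary, yolk protein, accessory gland and testis genes had no overlap between the 16 female and the 16 male arrays. Of the tagged genes, CG10990 fell in its own line in females (log2 change -1.27) and males (-2.05), mub fell on 1 of its 2 probe sets (-1.55 and -0.75), and CG9238 (-1.35) and pyd (-0.90 on 1 of 4 probe sets) fell in females. esg did not pass in its own line (0.61 in females and -0.10 in males), and crol had no probe set of its own. The 2 arrays of a group correlated at 0.964 to 0.985, and the median signal of an array was 48.2 to 71.0 in females and 115 to 141 in males.

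**Figure D1:**
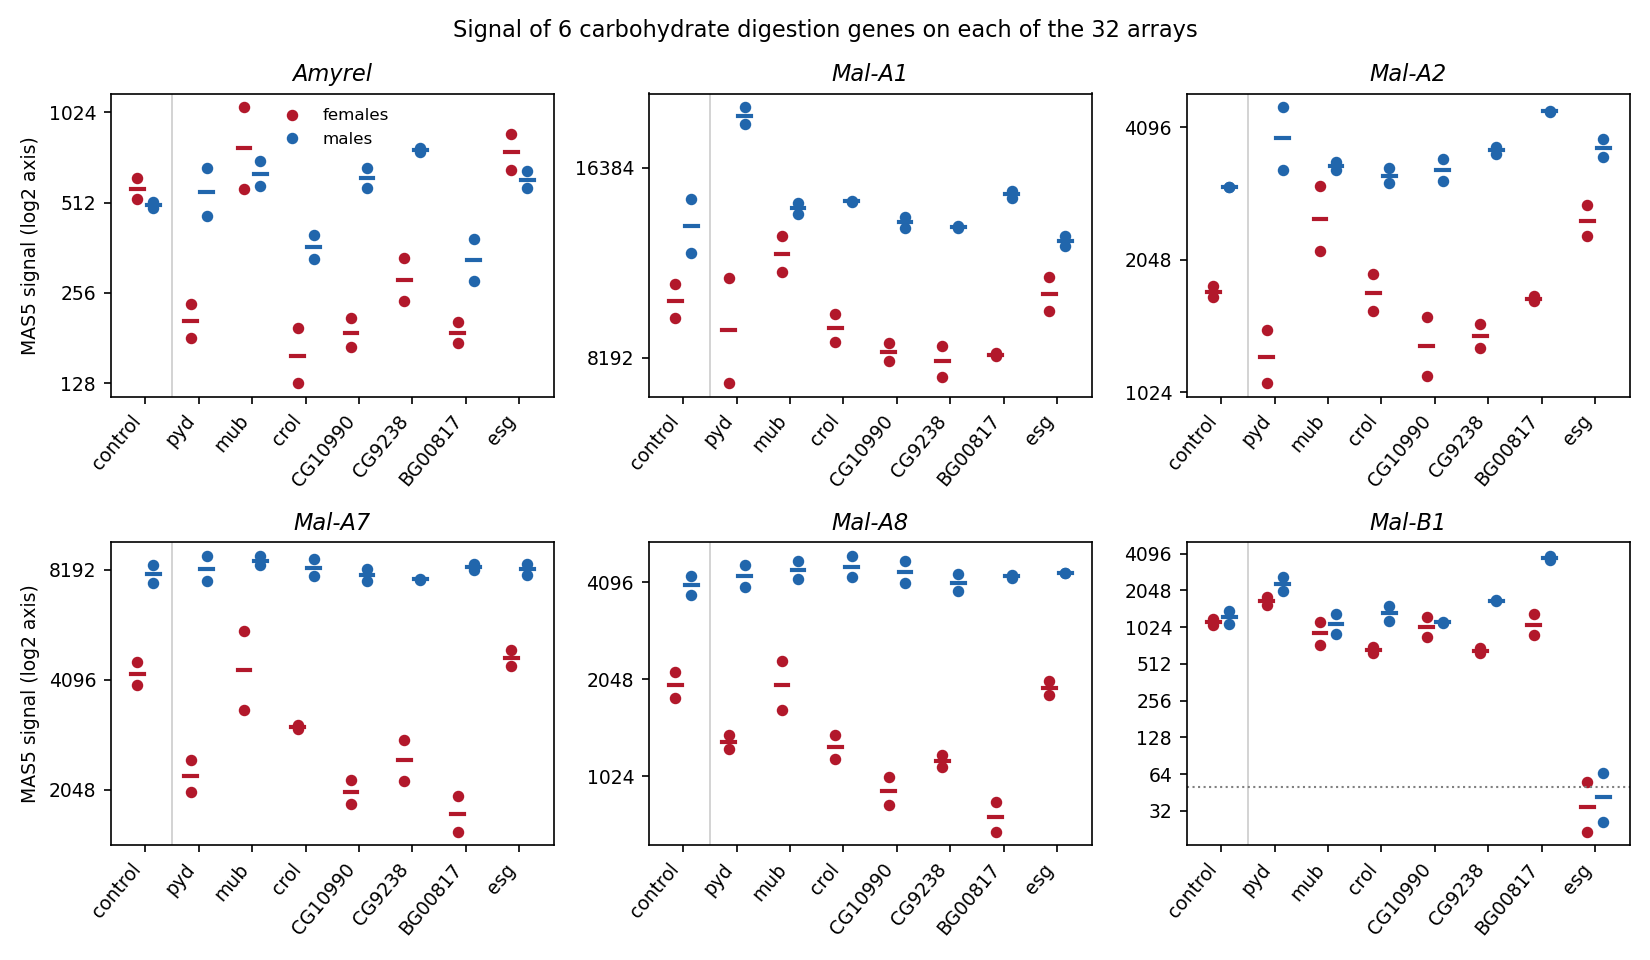
MAS5 signal of each gene on each of the 32 arrays (log2 axis), with 2 female and 2 male pools for the control and each insertion line. Points are arrays and short bars are means of log2 signal. The dotted line in the Mal-B1 panel marks a signal of 50, around which the 4 esg arrays lie.

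Of the 6 genes, Mal-B1 differed most among lines, and Mal-A7 and Mal-A8 showed the strongest contrast between the sexes. Over the 8 lines, a moderated F-test at an adjusted p of at most 0.001 called 1 of the 6 genes in females and 1 of 6 in males, against 1.17% and 1.69% of all kept probe sets. Both calls were Mal-B1 (adjusted p = 0.000432 and 4.94e-05). The female call was lost when any of 15 of the 16 female arrays was left out, all but the second esg array, and also without a filter on low values and under analysis of variance on log2 or untransformed signal. In males 1 member was called with each male array left out and none on untransformed signal. The other 5 genes gave adjusted p from 0.00376 to 0.184 in females and from 0.0143 to 0.866 in males. The line by sex test at the same threshold called 0 of 6, with adjusted p from 0.00275 for Mal-A8 to 0.155 for Mal-B1, against 0.591% of all kept probe sets.

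Each insertion line was then set against the control within a sex, at an adjusted p of at most 0.05. In females 7 of the 42 comparisons of a gene with a line passed, all lower than the control, and in males 4 of 42 passed, of which 3 were higher. That was 16.7% and 9.52% of the comparisons, where 5.95% and 5.08% passed over all kept probe sets in either direction. In fits to the arrays of 1 line and its control alone, with 2 arrays a side, none of these 11 passed. All lines of a sex shared the same 2 control arrays, so these comparisons are not independent of each other. In mub and CG9238 females no member passed, where 24.1% and 1.85% of all kept probe sets did in either direction. In mub, crol, CG10990 and CG9238 males no member passed either, where the shares over all kept probe sets were 1.29%, 12.9%, 2.89% and 2.84%. The median change of the 6 genes in females was lowest in CG9238 (-0.79), BG00817 (-0.78) and CG10990 (-0.74), followed by crol (-0.56) and pyd (-0.54). It was 0.14 in mub and 0.09 in esg, and the median of all kept probe sets lay within -0.04 and 0.01 in these 7 comparisons. In males the median of the 6 genes ran from 0.07 in CG10990 to 0.25 in pyd, beside -0.08 to 0.00 for all kept probe sets.

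In females 24 of the 42 comparisons had both line arrays below both control arrays and 5 had both above. Over all kept probe sets and lines those shares were 26.3% and 22.9%. Males ran the other way, with 3 of 42 below and 17 of 42 above, where all kept probe sets gave 30.9% and 22.5%. Of the 17, 7 were Mal-A2, all against the same control pair, and 4 were Amyrel. Mal-B1 gave 3, Mal-A1 gave 2, Mal-A8 gave 1 and Mal-A7 gave 0. The plot of changes by line shows which of these passed the test.

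**Figure D2:**
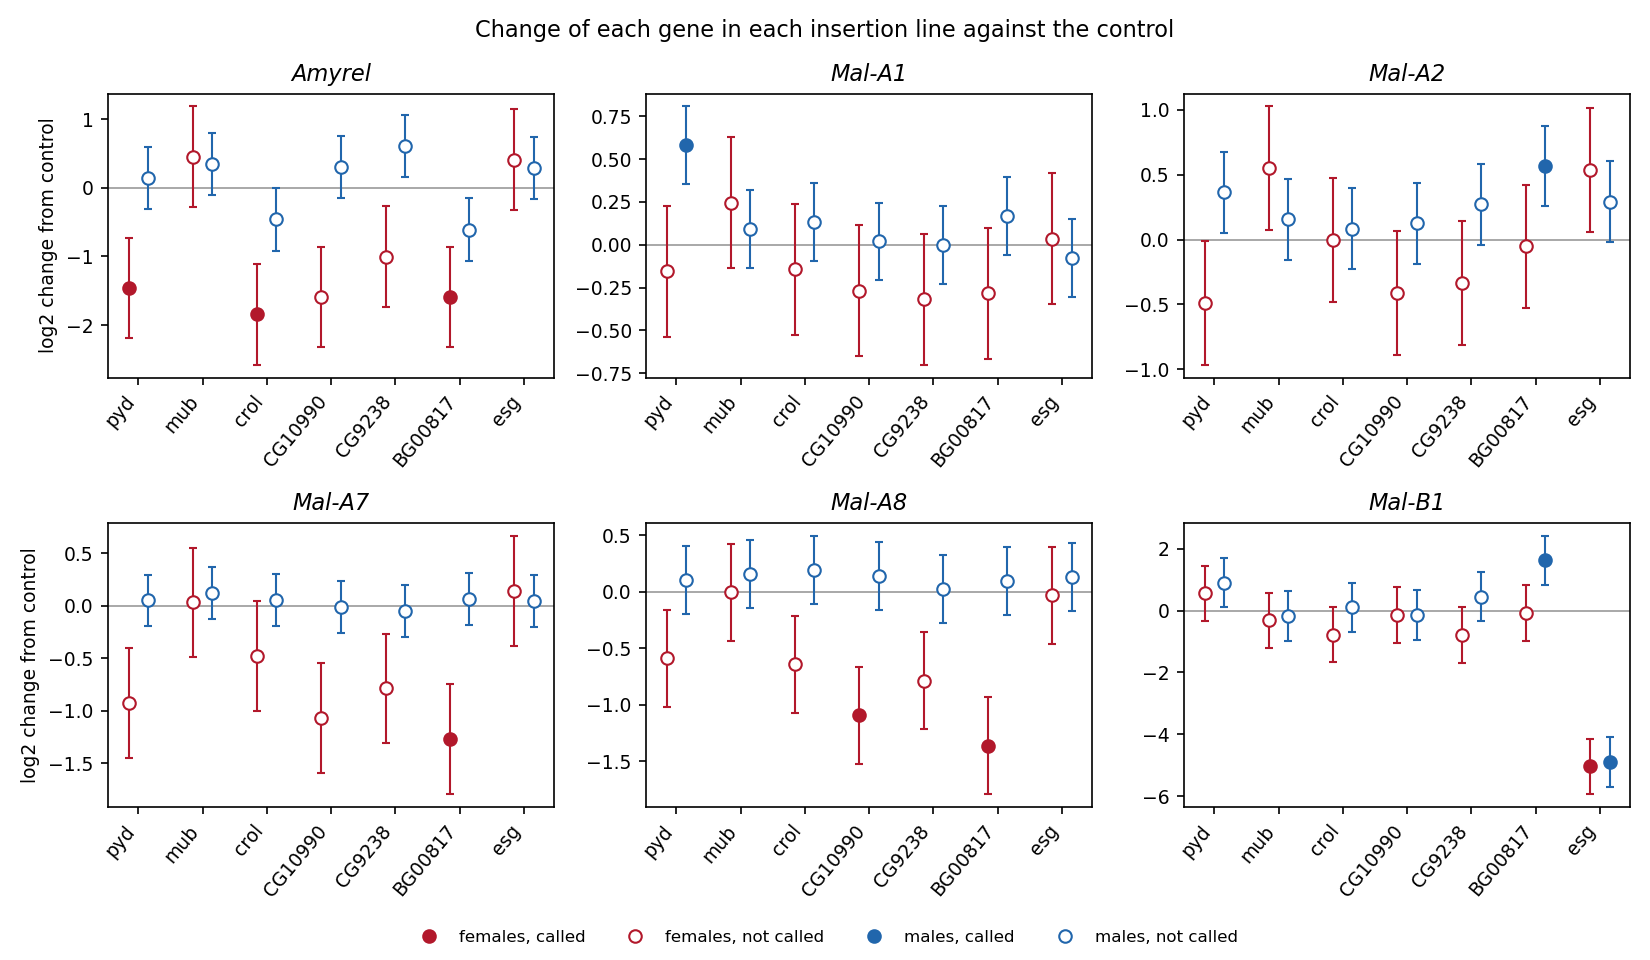
Log2 change of each gene in each insertion line against the control of the same sex, with 95% confidence intervals from the fit to the 16 arrays of that sex. Filled points passed at an adjusted p of at most 0.05: 7 in females, all below 0, and 4 in males.

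Amyrel signal fell in females of 3 lines. The control arrays read 524 and 616. In crol they read 128 and 196, in pyd 236 and 181, and in BG00817 204 and 174. Every one of these 6 arrays lay at less than the lower control array. The fall was 3.59-fold in crol (log2 change -1.84 ± 0.33 SE, adjusted p = 0.0189), 3.01-fold in BG00817 (-1.59 ± 0.33, adjusted p = 0.0297) and 2.75-fold in pyd (-1.46 ± 0.33, adjusted p = 0.0424). Among all kept probe sets, 0.855% were lower at this threshold in crol females, 1.65% in BG00817 and 1.67% in pyd.

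CG10990 females read 211 and 168, also under both control arrays. Their log2 change of -1.59 equalled that of BG00817 after rounding, but the adjusted p, taken within each line, was 0.0570. CG9238 females read 334 and 241, a control over line ratio of 2.01 (95% interval of the log2 change -1.74 to -0.27, adjusted p = 0.208). In esg both female arrays, 867 and 657, were above the control, and in mub the arrays stood apart at 1064 and 567 and overlapped it. In the order of female means, crol, CG10990, BG00817 and pyd overlapped from each to the next, and the steps from pyd to CG9238, to the control and to esg did not.

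In males Amyrel passed in no line. The control read 515 and 490, and the lowest lines were BG00817 with 280 and 388 and crol with 332 and 400. Both lay below the control on both arrays, with log2 changes of -0.61 (95% interval -1.06 to -0.16) and -0.46 (-0.92 to -0.01). CG9238 males were highest, at 780 and 755 (log2 change 0.61, interval 0.16 to 1.06). pyd males, at 666 and 462, lay on either side of the control, and mub, CG10990 and esg males read between 573 and 704.

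The Amyrel call in crol was lost without either control array (adjusted p = 0.0944 and 0.0870) or the first crol array (0.140), and that in BG00817 without any of the 4 arrays compared (0.103 to 0.165). The call in pyd was lost when any 1 of 12 of the 16 female arrays was left out (0.0563 to 0.158), that is, any array but those of mub and crol, and also after quantile normalization (0.0547). Without a filter on low values the calls in BG00817 (0.0605) and pyd (0.0849) were lost, as they were under analysis of variance on log2 signal (0.0509 and 0.0619), and on untransformed signal all 3 were (0.200 to 0.234).

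Mal-A7 and Mal-A8, neighbouring maltase genes, were lower in females of BG00817, and Mal-A8 also in CG10990. Mal-A8 read 1796 and 2149 in control females, 849 and 688 in BG00817 and 1016 and 835 in CG10990. The fall was 2.57-fold in BG00817 (log2 change -1.36 ± 0.19 SE, adjusted p = 0.00591) and 2.13-fold in CG10990 (-1.09 ± 0.19, adjusted p = 0.0294). In CG10990 females 0.439% of all kept probe sets were lower at this threshold. Neither line overlapped the control.

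Mal-A7 read 3952 and 4579 in control females and 1976 and 1574 in BG00817, a 2.41-fold fall (log2 change -1.27 ± 0.23 SE, adjusted p = 0.0191). CG10990 females, at 2180 and 1878, and pyd females, at 2472 and 2027, also lay under both control arrays without passing (log2 changes -1.07 and -0.93, adjusted p = 0.0684 and 0.0613). Both genes thus had their lowest female means in BG00817 and CG10990, and these 2 lines overlapped each other for both genes.

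The remaining female groups of Mal-A7 were CG9238 with 2801 and 2168, crol with 3082 and 3009, mub with 5563 and 3397 and esg with 4939 and 4474. Those of Mal-A8 were CG9238 with 1191 and 1090, crol with 1156 and 1371, pyd with 1373 and 1243, mub with 2331 and 1648 and esg with 2025 and 1828. For both genes pyd, crol and CG9238 lay below the control on both arrays, while mub and esg overlapped it. In males neither gene passed in any line. Mal-A7 kept to 7540 to 8942 and Mal-A8 to 3745 to 4956 over the 16 male arrays, and all 7 neighbouring steps in the order of male means overlapped for each gene. The largest male change was 0.12 for Mal-A7 (mub, 95% interval -0.12 to 0.37) and 0.19 for Mal-A8 (crol, -0.11 to 0.50).

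The BG00817 call of Mal-A8 was lost without the second BG00817 array (adjusted p = 0.0577), and that of Mal-A7 without any of the 4 arrays compared (0.0592 to 0.130). The CG10990 call of Mal-A8 was lost without any of 8 female arrays, those of control, CG10990, CG9238 and esg (0.0527 to 0.150), without a filter on low values (0.0691) and under analysis of variance on log2 signal (0.0504). On untransformed signal that call (0.0898) and the one of Mal-A7 (0.0798) were lost.

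Markers of midgut and ovary were read in the same females. For midgut markers 11 of 13 genes had a kept probe set. In females 6 of 77 comparisons were higher and 3 lower (11.7% called, against 5.95% of all kept probe sets). The 3 lower were the trypsin genes betaTry, epsilonTry and lambdaTry in crol. Of the 6 higher, 4 were in mub, where 24.1% of all kept probe sets passed in either direction, and 2 in BG00817. No midgut marker passed lower in pyd, CG10990 or BG00817 females, and in BG00817 the absorptive cell gene mex1 (0.95) and the protease gene Jon65Ai (1.42) rose. The summed midgut marker signal was 55374 to 64177 in control females, 65581 to 71737 in BG00817, 65555 to 73969 in CG10990, 63997 to 71111 in pyd, 43302 to 45996 in crol, 56242 to 58157 in CG9238, 62110 to 70174 in esg and 80065 to 81410 in mub. In BG00817 and CG10990 females both arrays were above the control on the midgut sum and below it on Mal-A7, Mal-A8 and Amyrel. In crol females both arrays were below the control on the midgut sum as well as on these genes. In pyd and CG9238 females, also below it on these genes, the midgut sum overlapped the control. Npc1b and lab had no probe set of their own.

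The summed signal of 8 ovary probe sets from 5 genes was 33265 to 37430 in control females, 42591 to 47866 in CG10990, 39387 to 45230 in CG9238, 39396 to 40021 in BG00817, 38548 to 39547 in crol and 37704 to 38602 in esg, each above the control. In pyd (36021 to 38507) and mub (33476 to 39219) it overlapped the control. The ovary probe sets did not move together. The chorion gene Cp16 had log2 changes from 2.80 to 3.23 in females of CG10990, CG9238, BG00817, crol and esg and Cp36 from 0.36 to 0.70, none of which passed. The SE of the Cp16 changes was 1.07, and the 2 control arrays were uneven for this gene. One of them read 192, the lowest of all female arrays, while the control mean of log2 signal was 9.80. Of 56 comparisons of single ovary probe sets 8 were lower and 1 higher (16.1% called, against 5.95% of all kept probe sets). The lower ones were the germline genes osk (mub, pyd and BG00817) and bcd (mub, BG00817 and esg), some on several probe sets of 1 gene. Of these, 4 were in mub, where 24.1% of all kept probe sets passed in either direction. The higher one was vas in CG9238. In BG00817 females, for example, bcd fell on 1 of 2 probe sets (-1.20) and osk on 1 of 3 (-0.48). RNA integrity was read from array control probe sets as the log2 ratio of 3′ over 5′ signal, averaged over 3 transcripts, which is higher where RNA is more degraded. It was 0.86 to 0.96 in control females and higher on both arrays in BG00817 (1.44 to 1.60), esg (1.39 to 1.52), crol (1.31 to 1.50), CG10990 (1.25 to 1.36), CG9238 (1.17 to 1.29) and pyd (0.98 to 1.30). In mub females it was 0.82 and 1.28. The part of midgut RNA, ovary RNA and RNA integrity in the female values of Amyrel, Mal-A7 and Mal-A8 was not tested.

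Mal-B1 was near the filter's signal of 50 in the esg line in both sexes. Control females read 1076 and 1192 and esg females 21.7 and 55.1. Control males read 1097 and 1385 and esg males 66.0 and 26.0. The 4 esg arrays were the 4 lowest of all 32. The fitted log2 change was -5.04 ± 0.40 SE in females (adjusted p = 0.000368) and -4.89 ± 0.36 in males (adjusted p = 0.000115). With signals under 50 raised to 50, Mal-B1 was at least 21.6-fold lower in females and at least 21.5-fold lower in males. Of all kept probe sets 1.57% were lower in esg females and 0.671% in esg males. Both calls held with each of the 16 arrays of that sex left out in turn (adjusted p up to 0.00596 in females and 0.00323 in males). They were lost in fits to the esg and control arrays alone (0.178 and 0.0711), and the male call also under analysis of variance on untransformed signal (0.0711).

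In BG00817 Mal-B1 rose in males. The arrays read 3936 and 3651, the highest 2 of all 32, a 3.07-fold rise (log2 change 1.62 ± 0.36 SE, adjusted p = 0.0285), where 2.89% of all kept probe sets were higher. In BG00817 females the gene read 882 and 1312, on either side of the control (log2 change -0.08, 95% interval -0.97 to 0.82). The test of the difference between the sexes in BG00817 did not pass (1.70 ± 0.56 SE, 95% interval 0.52 to 2.87, adjusted p = 0.335). The male call was lost without any of the 4 arrays compared (0.0888 to 0.185), after quantile normalization (0.156), without a filter on low values (0.0730) and under analysis of variance on log2 signal (0.0604). The log2 ratio of 3′ over 5′ control signal was 1.44 to 1.54 in BG00817 males and 1.41 to 1.48 in esg males against 0.89 to 1.00 in control males, and its part in the Mal-B1 values was not tested.

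pyd was the highest female group for Mal-B1, with 1803 and 1542, and came next to BG00817 in males, with 2016 and 2633, above the control on every array. Neither passed (log2 changes 0.56 and 0.90, adjusted p = 0.482 and 0.160). CG9238 males read 1673 and 1701, above the control, while CG9238 females read 689 and 624 and crol females 627 and 698, below it. The remaining groups, mub and CG10990 of both sexes and crol males, read between 737 and 1522 and overlapped the control. pyd and BG00817 were thus separated from every lower line in males, and pyd in females.

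The genes around Mal-B1 were examined after its values were seen. Of the 8 annotated genes on either side, 5 had a kept probe set with 1 gene symbol. Mal-B2, its immediate neighbour and another maltase gene, had a log2 change of -0.37 ± 0.16 SE in esg females and -0.38 ± 0.14 in esg males (adjusted p = 0.204 and 0.368). In BG00817 males Mal-B2 changed by 0.06 ± 0.14. None of the 5 neighbours passed lower in esg in either sex. CG44008, 4 genes away, rose in esg females (0.46, adjusted p = 0.0261) and in BG00817 females and males (0.61 and 0.59, adjusted p = 0.00654 and 0.00952). CG16964, 7 genes away, had a change of -2.50 in esg females between signals that both averaged under 50, where levels have no order.

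**Figure D3:**
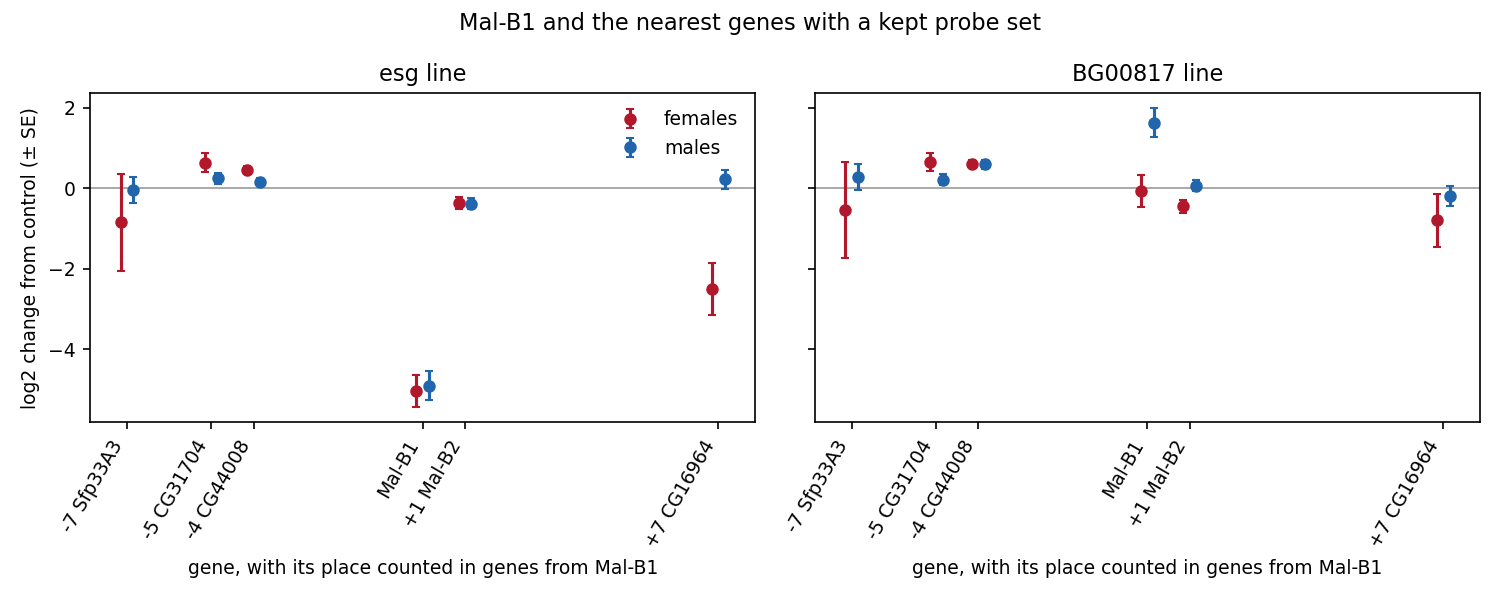
Log2 change from the control (± SE) of Mal-B1 and of the 5 genes within 8 places of it that had a kept probe set, in the esg and BG00817 lines. The horizontal axis counts genes from Mal-B1. In esg Mal-B1 lies at -5.04 in females and -4.89 in males while Mal-B2, the next gene, lies at -0.37 and -0.38.

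Mal-A1, the first gene of the Mal-A cluster, rose in pyd males. The pyd arrays read 20408 and 19175 against 12005 and 14590 in control males, and no other male array exceeded 15064. The rise was 1.49-fold (log2 change 0.58 ± 0.10 SE, adjusted p = 0.00750), and 4.23% of all kept probe sets were higher in pyd males. Without the first control array the adjusted p was 0.0673, and quantile normalization took the change to 0.04 (adjusted p = 0.855). In females Mal-A1 read 9478 and 10734 in the control and 7471 to 12760 over all 16 arrays, with log2 changes from -0.32 in CG9238 to 0.24 in mub, none called. pyd females were the most uneven pair, at 10968 and 7471.

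In pyd males 5 of 11 midgut marker probe sets passed, where 1101 of all 12518 kept probe sets did. Of the 5, alphaTry (0.57), Jon25Biii (1.46), Jon65Ai (1.21) and Jon99Ci (0.53) were higher and nub (-1.21) lower. The summed midgut signal there was 61356 to 65426 against 42075 to 45519 in control males, the highest of the 8 male groups. The log2 ratio of 3′ over 5′ control signal was 1.13 to 1.21 in pyd males. The part of either in the Mal-A1 value was not tested.

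Mal-A2 rose in BG00817 males. The arrays read 4448 and 4438 against 2999 and 2998 in control males, a 1.48-fold rise (log2 change 0.57 ± 0.14 SE, adjusted p = 0.0440). All 14 male arrays of the insertion lines, from 3057 upward, lay above both control arrays, though no other line passed. Over all kept probe sets 22.5% of such single comparisons in males did so. The 7 comparisons share the same 2 control arrays, and the share of probe sets above them in all 7 lines was not counted. The highest single male array was one of pyd, at 4541, whose partner read 3279. The BG00817 call was lost when any 1 of 12 of the 16 male arrays was left out, all but those of pyd and CG10990 (0.0547 to 0.197), and in a single fit over all 32 arrays (0.0829). It was lost as well without a filter on low values (0.105) and under analysis of variance on log2 (0.0531) or untransformed signal (0.0536). Among midgut markers mex1 was higher in BG00817 males (1.12) and no other passed. Of the fat body markers Lsp2, a larval serum protein gene, read 128 and 183 in control males and at least 1515 on every male array of the insertion lines, and rose in all 7. The other fat body marker, apolpp, passed in pyd males alone (0.46, adjusted p = 0.0146). In males of the remaining lines its log2 change ran from -0.08 in esg to 0.09 in mub, with 0.05 in BG00817. The sum of the 2 fat body probe sets, Lsp2 and apolpp, was 11592 to 13501 in control males and 14208 to 14486 in BG00817 males. The yolk protein gene Yp1 went the other way from Lsp2. It lay below both control male arrays in all 7 lines, with log2 changes from -3.30 in mub to -2.58 in CG9238. Of 21 yolk protein comparisons in males 1 passed, Yp1 in pyd (4.76%, against 5.08% of all kept probe sets). The part of fat body RNA, or of anything else that set control males apart, in the male values was not tested.

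In females Mal-A2 passed in no line. The control read 1685 and 1782. mub, at 3004 and 2141, and esg, at 2721 and 2316, lay above it (log2 changes 0.55 and 0.54, adjusted p = 0.0869 and 0.176). pyd, at 1418 and 1074, CG10990, at 1116 and 1521, and CG9238, at 1464 and 1289, lay below it, with changes of -0.49, -0.41 and -0.34. BG00817 females, at 1691 and 1649, and crol females, at 1565 and 1901, overlapped the control.

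All 6 genes were higher in males than in females when averaged over the 8 lines, at an adjusted p of at most 0.001. This was also true of 46.2% of all kept probe sets, so a higher male signal was common on these arrays. The male over female ratio was 3.24 for Mal-A8 (log2 difference 1.70 ± 0.06 SE, adjusted p = 1.54e-15), 2.80 for Mal-A7 (1.49 ± 0.06, 5.03e-14) and 2.07 for Mal-A2 (1.05 ± 0.06, 9.53e-12). It was 1.66 for Amyrel (0.73 ± 0.10, 1.24e-06), 1.60 for Mal-B1 (0.68 ± 0.14, 0.000168) and 1.53 for Mal-A1 (0.62 ± 0.05, 4.77e-10). These averages did not hold in each line. Amyrel means were lower in males than in females in the control (-0.18), mub (-0.28) and esg (-0.30), and Mal-B1 differed by 0.12 in the control.

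For Mal-A7, Mal-A8 and Mal-A2 the ranges tell how firmly this holds. The 16 female arrays of Mal-A8 ran from 688 to 2331 (median 1307) and the 16 male arrays from 3745 to 4956 (median 4313). For Mal-A7 the female range was 1574 to 5563 (median 2905) and the male range 7540 to 8942 (median 8200). Neither gene overlapped between the sexes, while for Mal-A2 the highest female array (3004, in mub) just exceeded the lowest male array (2998, in the control). For Amyrel and Mal-B1 the sexes overlapped widely.

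The median sex difference of all kept probe sets was 0.20 as deposited, -0.12 after quantile normalization and 0.42 with each array centred on its median. Relative to that median the 6 genes stood 0.42 to 1.50 higher in males as deposited and when centred, and 0.60 to 1.83 higher after quantile normalization. Under quantile normalization Mal-B1 no longer passed at 0.001 (adjusted p = 0.00262). Whole females and males also differ in ovary and testis RNA, and its part in these sex differences was not tested.

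The line by sex test, given above, called none of the 6 genes at 0.001, and single lines were set against the control at 0.05. In the control the male minus female difference was 1.03 for Mal-A8, 0.91 for Mal-A7, 0.79 for Mal-A2, 0.39 for Mal-A1, 0.12 for Mal-B1 and -0.18 for Amyrel. In BG00817 it was 2.49 for Mal-A8 and 2.24 for Mal-A7, and in CG10990 it was 2.26 for Mal-A8. In mub and esg it stayed near that of the control, at 1.19 in both for Mal-A8 and at -0.28 and -0.30 for Amyrel.

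**Figure D4:**
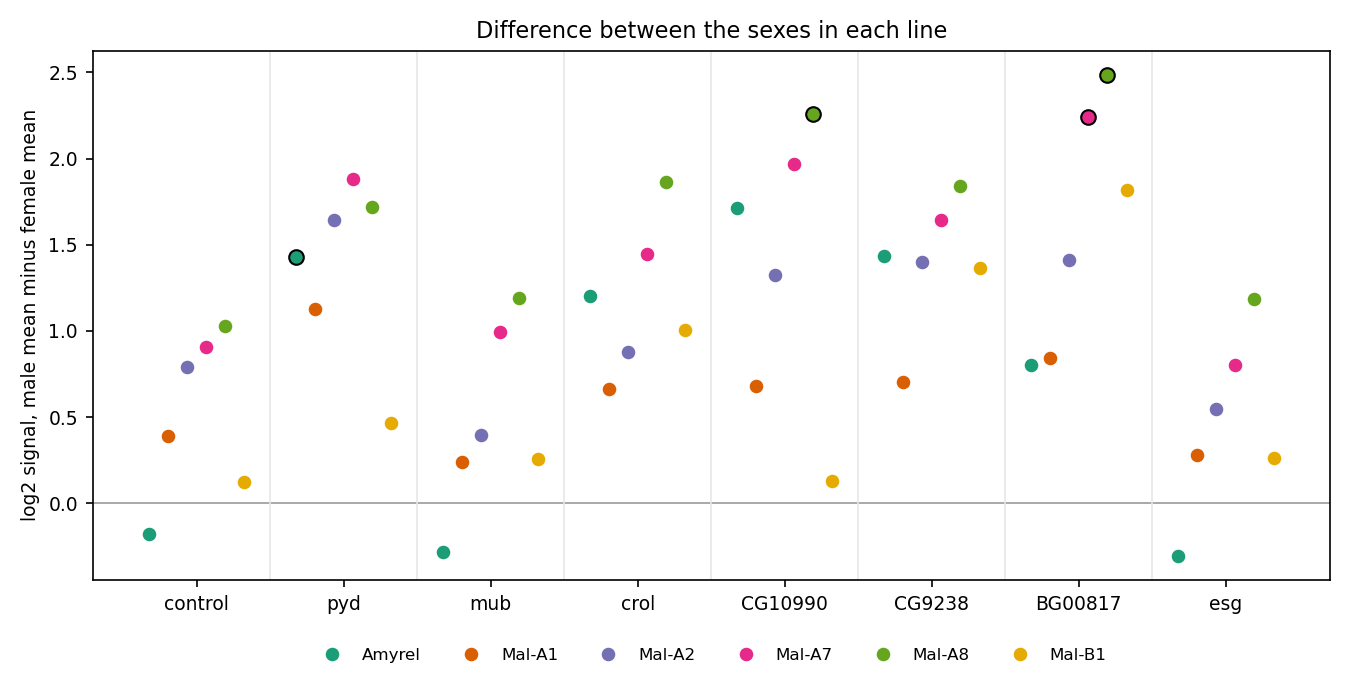
Difference in log2 signal between males and females (male mean minus female mean, 2 arrays each) for each gene in the control and each insertion line. Points ringed in black differed from the control's sex difference at an adjusted p of at most 0.05: Amyrel in pyd, Mal-A8 in CG10990, and Mal-A7 and Mal-A8 in BG00817.

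The test of each line's sex difference against that of the control passed in 4 of 42 comparisons, all with the male change above the female change. These were Amyrel in pyd (1.60 ± 0.40 SE, adjusted p = 0.0466), Mal-A7 in BG00817 (1.33 ± 0.26, 0.0302) and Mal-A8 in BG00817 (1.46 ± 0.23, 0.00835) and CG10990 (1.23 ± 0.23, 0.0313). Over all kept probe sets the male change exceeded the female change at this threshold in 0.631% in pyd, 0.128% in BG00817 and 0.0879% in CG10990. No member passed in mub, crol, CG9238 or esg, where the shares in either direction were 4.14%, 2.53%, 0.671% and 0.639%.

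Amyrel in CG10990 had the largest difference without passing (1.89 ± 0.40 SE, adjusted p = 0.0600). In each of the 4 comparisons that passed, the female change passed on its own (-1.46, -1.27, -1.36 and -1.09) and the male change did not (0.14, 0.06, 0.09 and 0.14). Leaving out 1 array ended the Amyrel call for 20 of the 32 arrays (adjusted p = 0.0515 to 0.141). It ended the Mal-A7 call for 6, namely the 2 control male arrays, the 2 BG00817 male arrays, the first control female array and the second BG00817 female array (0.0575 to 0.155). For Mal-A8 in CG10990 it did so for the 2 control male, the 2 CG10990 male, the first control female and the second CG10990 female arrays (0.0541 to 0.179), and in BG00817 for the second female array (0.0602) and the first control male array (0.0663). Without a filter on low values Amyrel in pyd (0.0837), Mal-A7 in BG00817 (0.0646) and Mal-A8 in CG10990 (0.0819) were lost, under analysis of variance on log2 signal Amyrel in pyd (0.0555), and on untransformed signal or in fits to the line and control arrays alone all 4.

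The other carbohydrate digestion genes on the list are Amy-p, Amy-d, Mal-A3, Mal-A4, Mal-A5, Mal-A6, Mal-B2, tobi, Treh and Gal. The amylase genes Amy-p and Amy-d share 1 probe set and were not read. The remaining 8 genes had 1 kept probe set each, and of 56 comparisons with the control in females 1 was higher and 1 lower (3.57% called, against 5.95% of all kept probe sets). In males 3 of 56 passed, all higher (5.36% against 5.08%). 

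tobi, an alpha-glucosidase gene known as a target of brain insulin, fell in crol females, from 4424 and 5628 in the control to 2293 and 2127 (log2 change -1.18 ± 0.23 SE, adjusted p = 0.0319). Its change differed between the sexes in pyd (1.28 ± 0.30, adjusted p = 0.0378) and crol (1.21 ± 0.30, 0.0417). Gal, a beta-galactosidase gene, rose in mub females (0.96 ± 0.20, adjusted p = 0.0109) and pyd males (0.70 ± 0.18, 0.0395). The maltase gene Mal-A5 rose in pyd males (0.49 ± 0.10, adjusted p = 0.0151), as Mal-A1 did, and Mal-A3 rose in CG9238 males (0.55 ± 0.13, 0.0450).

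Among the rest, singled out after their values were seen, Mal-A4, Mal-A6 and tobi also lay below the control on both arrays in females of pyd, crol, CG10990, CG9238 and BG00817, the lines in which Amyrel, Mal-A7 and Mal-A8 did so. Apart from tobi in crol none of these passed, with log2 changes from -0.42 to -0.96. In mub and esg females Mal-A4 lay above the control on both arrays (0.66 and 0.62, adjusted p = 0.0720 and 0.167). Treh, which codes for trehalase, and Mal-A5 did not follow this order. Mal-A5 was also the only one of the 14 genes with a lower signal in males than in females (log2 difference -0.23 ± 0.04 SE, adjusted p = 1.43e-05).

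**Figure D5:**
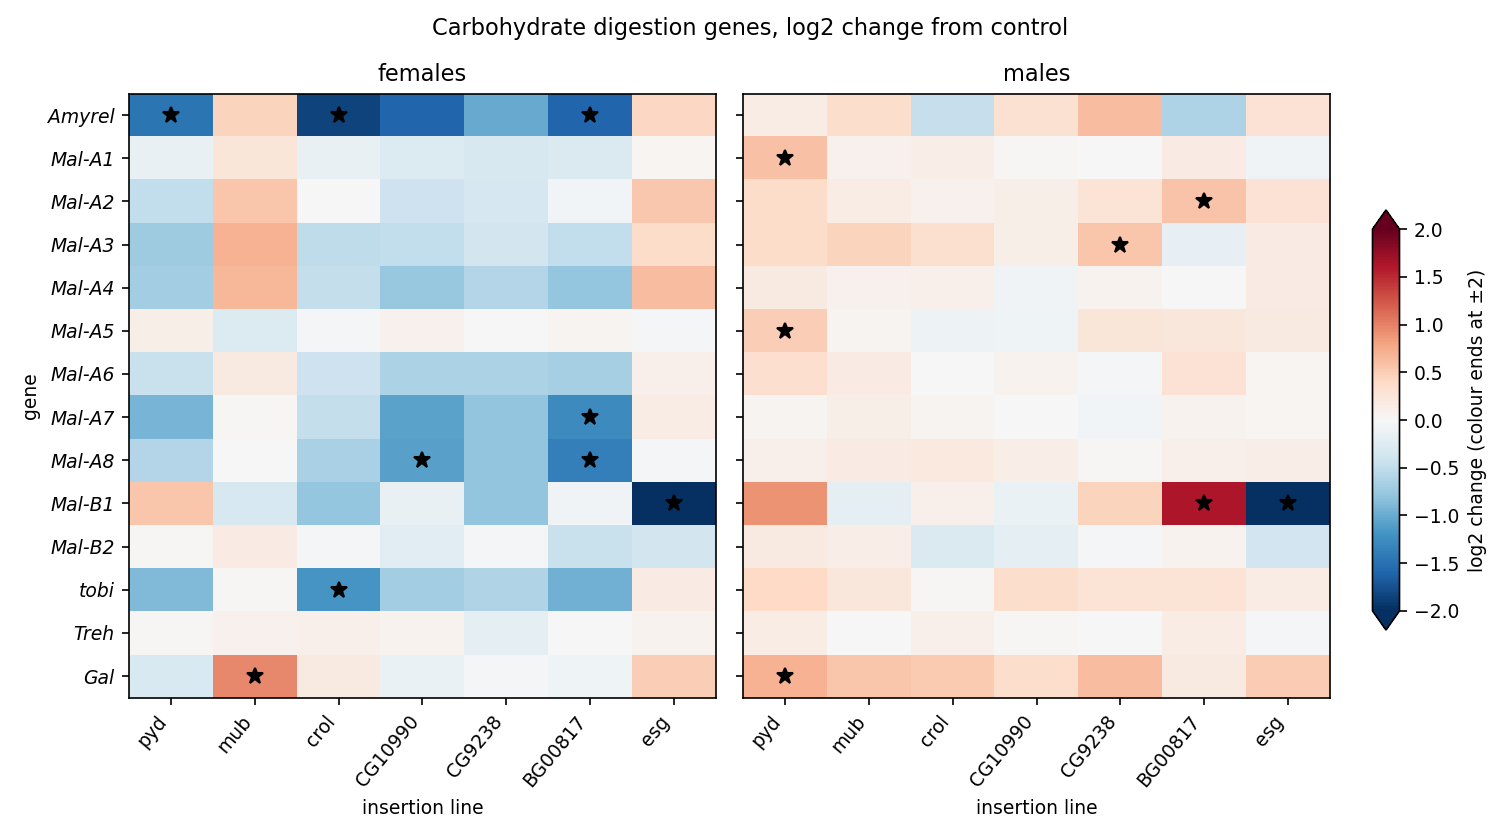
Log2 change from the control of the same sex for 14 carbohydrate digestion genes (rows) in 7 insertion lines (columns), females left and males right. The colour scale ends at ±2, which cuts off Mal-B1 in esg (-5.04 and -4.89), and stars mark an adjusted p of at most 0.05.

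Likeness of pattern was described by the correlation with each gene over the 32 arrays, after subtracting the mean of each sex, among 11071 other kept probe sets with 1 gene symbol. These arrays form 16 groups of 2, share their controls and are no independent points. Mal-A7 was most like Mal-A8 (r = 0.932), Mal-A4 (0.894) and Mal-A6 (0.883), and Mal-A8 most like Mal-A7, Mal-A6 (0.864) and Mal-A4 (0.843). Those probe sets all belong to the Mal-A cluster on 2R, and probes of related genes can bind the same RNA, which was not tested here. The likeness came mainly from females, where Mal-A7 and Mal-A8 gave 0.950 over 16 arrays against 0.424 in males.

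Amyrel was most like the lipase gene Lip3 (0.898), Mal-A3 (0.869) and tobi (0.857). Within males the value for tobi was 0.326 and that for Lip3 0.831. Mal-A1 was most like CG6409 (0.878), CG13315 (0.842) and CG7920 (0.837), and Mal-A2 most like CG4363 (0.875), CG7953 (0.858) and Hpd (0.831), a gene of tyrosine breakdown. Mal-B1 had the weakest likeness, to Gtpx (0.760), Stlk (0.743) and mthl8 (0.733). The 4 esg arrays, where Mal-B1 lay around 50 and far from the rest, enter these values.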

How the data were processed

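Per the labels, 42-day-old flies of 7 insertion lines and the control were profiled in 2 pools per line and sex on 32 arrays. The deposited intensity values are linear MAS5 signals, of which the authors computed 1 for each probe set. The MAS5 version is not given in the sources used here. As deposited, each array has a mean of 500.0 after trimming 2% at each end, and arrays give no read depth, so their number limits the precision.

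The 183 array control probe sets were left out and 12518 probe sets kept (signal of at least 50 on both arrays of a group), of which 11072 have 1 gene symbol. Genes were named from GEO's platform annotation, and their order was read from a RefSeq table of assembly Release 6 plus ISO1 MT. log2 signal was fitted with limma 3.58.1 in R 4.3.3, within each sex (8 residual degrees of freedom) for lines and over all arrays (16) for sex and its difference between lines. P-values were adjusted by Benjamini-Hochberg over all kept probe sets and are two-sided, with thresholds of 0.001 for F-tests and sex and 0.05 for single lines.

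The members, gene lists and tests were chosen with earlier results of these data known. Every member was named. Of the other lists, up to 4 genes called in at least 1 line were named by smallest p, with 3 probe sets of most like pattern per member and the tagged genes. The scripts were tested on simulated data. Alternatives were other scalings, filters, offsets and variance models, a replicate block, narrower and wider fits, and each array left out. Where 1 array of a group was left out, the other was assumed to vary like the other groups.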

Additional observations from a re-analysis of the deposited data

Results flagged for a closer look

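In 4 comparisons the change from the control differed between the sexes by the interaction test. For Amyrel in pyd the male change exceeded the female change by 1.60 on the log2 scale (adjusted p = 0.0466). For Mal-A7 in BG00817 the difference was 1.33 (adjusted p = 0.0302). For Mal-A8 it was 1.46 in BG00817 (adjusted p = 0.00835) and 1.23 in CG10990 (adjusted p = 0.0313). In each, both female line arrays lay below both female control arrays, while the male line arrays overlapped the male controls. All groups hold 2 arrays, so single arrays that stand apart from their group were not looked for.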

How the results depend on the processing

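No result changed direction under any alternative tried. With each array left out in turn, the number of member calls was 0 to 1 for the line test in females, 1 in males, 0 to 1 for the line by sex test, 6 for sex, 2 to 10 for single lines in females, 1 to 5 in males and 0 to 10 for the sex difference of a line, where the values with all arrays were 1, 1, 0, 6, 7, 4 and 4. Of 496 such checks of single calls 413 held, and of 236 under the other alternatives 189 held. The 496 include the male minus female differences of the 6 genes, which held with each of the 32 arrays left out. All 83 losses there thus fell on calls of single lines and of the sex difference of a line. Without a filter on low values the line test in females called 0, single lines 4 in females and 2 in males, and the sex difference of a line 1. Analysis of variance without shared variance called 0 in the line test in females and 4 and 2 for single lines in females and males. On untransformed signal it called 0 in the line test in each sex, 1 in the line by sex test and 2 each for single lines in females and for the sex difference of a line. An intensity trend in the variance gave 4 for the line test in females, 3 for line by sex, 12 for single lines in females and 10 for the sex difference of a line. Quantile normalization left 2 single-line calls in males. A single fit over 32 arrays called 15 for single lines in females, and fits on a line and its control alone called 0 in females, males and the sex difference. Adding 16 to each signal gave 7 for the sex difference of a line, and signals under 50 raised to 50, chosen after seeing the data, gave 12, with 2 for line by sex. Centring arrays on their medians moved the median change of a line by at most 0.11. The causes of these shifts were not tested.

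Same-numbered arrays of different groups deviated together little (120 pairs, correlations -0.144 to 0.242, 113 of them under 0.1). Such weak correlations cannot tell whether the samples were handled in numbered batches. A replicate block called 0 in the line test in females and 11 for single lines in females, ended the call of Mal-A2 in BG00817 males (adjusted p = 0.0513), and over all kept probe sets lowered the calls of each line (for example 3013 to 2831 in mub females). With 2 arrays a group, signals near 50 carry little information on the size of the Mal-B1 loss in esg.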

Other observations

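Sugar transporter and sugar response genes were read from lists in the same fits. Of 8 kept transporter probe sets, 2 of 56 comparisons passed in females (3.57%, against 5.95% of all kept probe sets) and 1 of 56 in males (1.79% against 5.08%), all higher. Tret1-1, which codes for a trehalose transporter, rose in mub females (0.55, adjusted p = 0.0122), and sut2, of the sugar transporter family, rose in mub females (0.75, adjusted p = 0.00755) and BG00817 males (0.57, adjusted p = 0.0377).

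Of 17 probe sets for sugar response regulators, 16 of 119 comparisons passed in females, all higher (13.4%, against 5.95% of all kept probe sets in either direction). Of these 16, 6 were in mub, where 24.1% of all kept probe sets passed in either direction. In males 6 of 119 passed (5.04% against 5.08%). Ilp2, an insulin-like peptide gene of the brain, rose in females of 6 lines, all but CG9238, from 91.7 and 102.8 in the control to 195 and 253 in mub (log2 change 1.19, adjusted p = 0.00224). InR, the insulin receptor gene, fell in males of pyd (-2.25, adjusted p = 0.000682), CG10990 (-1.85, 0.00419) and CG9238 (-1.34, 0.0229). GATAe, which codes for a gut GATA factor, rose in females of mub, crol, BG00817 and esg (0.66 to 0.81). Akh, the adipokinetic hormone gene, rose in females of esg (1.00, adjusted p = 0.0185) and mub (0.65, adjusted p = 0.0246). How these relate to the maltase genes was not tested.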
